A study of Mus musculus with 4 samples.

Results

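Malat1 and Neat1 are neighbouring genes for long noncoding RNAs that stay in the nucleus. Together they lay under 3 of the 12053 peaks of a YY1 CLIP-seq library from mouse embryonic stem cells. The members were all peaks of either strand that overlapped a window of mm9 chromosome 19 (chr19:5780000-5860000). In it, Malat1 was taken as the minus-strand unit from 5795690 to 5802671 (6982 bases) and Neat1 as the minus-strand unit from 5824700 to 5845480 (20781 bases). These unit limits came with the choice of the locus and are approximate, and no mm9 annotation was used. The locus was selected on the width of its peaks, as seen in these same lists, so widths and coverage are given as a description, with no test. Peaks in the lists have a chromosome, a start and an end, and no read count or score, so read depth is unknown.

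CLIP-seq joins RNA to protein with ultraviolet light, here at 254 nm, captures the protein and sequences the RNA. The series has 4 libraries, 1 for each group. The YY1 group was embryonic stem cells of genotype BirA BioYY1, which made the biotin ligase BirA and a form of YY1 that carries biotin. Its control made BirA alone, and the other pair was an OCT4 library, from cells with BirA and Bio-Oct4, and its own control with BirA alone. All were grown on irradiated mouse embryonic fibroblasts, and RNA was taken from purified nuclei on streptavidin beads. The fibroblasts are a second source of nuclei in the culture, and the protocols give BioYY1 to the stem cells only. Peak lists of the YY1 library were used, and the other 3 libraries were not analysed here. There is thus no replicate error, and whether the same stretches would be found without BioYY1 was not tested.

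YY1 is a zinc finger transcription factor that binds DNA and also RNA, and the series asked whether RNA made at regulatory elements holds such factors there. Malat1, also listed as Neat2, is one of the most abundant nuclear RNAs and gathers in nuclear speckles, which store splicing factors. RNase P cuts its primary transcript near the end, which releases a small tRNA-like RNA, mascRNA, and leaves a 3′ end protected by a triple helix. Neat1 is the scaffold of paraspeckles, nuclear bodies built around RNA and RNA-binding proteins. It has a short polyadenylated form and a long form that start at the same promoter. The short form takes in the 5′ part alone, while the long form runs on through the whole unit and is the one that builds the body.

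The 5′ end of Malat1 is shown as sequence because the Malat1 peak reached the 5′ limit of the unit. The sequence is of another build than the peaks and was not placed against them. The RefSeq promoter table, of build GRCm38.p6, held 1 entry for Malat1 and 0 for Neat1. The Malat1 entry is 300 bases of the minus strand, with 250 bases before the gene's start in lower case and the first 50 bases from the start in capitals.
Malat1: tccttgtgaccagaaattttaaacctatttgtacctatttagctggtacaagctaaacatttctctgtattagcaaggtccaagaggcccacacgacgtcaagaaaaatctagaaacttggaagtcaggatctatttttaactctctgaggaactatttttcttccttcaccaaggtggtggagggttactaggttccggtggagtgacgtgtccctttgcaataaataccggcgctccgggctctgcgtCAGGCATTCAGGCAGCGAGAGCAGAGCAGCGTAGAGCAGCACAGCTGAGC
The DNA motif of YY1, searched as GCCATNTT on both strands, was found 0 times in this window and in 6.05% of the 32851 windows of the same length in the table. Its core CCAT, which lies inside that motif, was also found 0 times, against 83.1% of all windows with at least 1 match. The TATA box, searched as TATAAA on both strands, had 0 matches here and was present in 13.6% of windows. These counts say only that the letters were not in this window.

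Malat1 was covered by 1 unbroken peak over nearly its whole length. The peak ran from 5795782 to 5802734 on the minus strand and measured 6953 bases. It held 6890 bases of the unit, or 98.7%. At the 5′ end it passed the unit's approximate limit by 63 bases. At the 3′ end it stopped short of the limit, so the last 92 bases of the unit, 1.32% of it, had no peak. This end of the unit is on the side where RNase P cuts the transcript. The place of that cut in mm9 was not examined, so the 92 bases were not assigned to it. Counted from the 5′ end in 10 equal bins, each of the first 9 bins of Malat1 was covered to 100%. The last bin was covered to 86.8%.

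**Figure D1:**
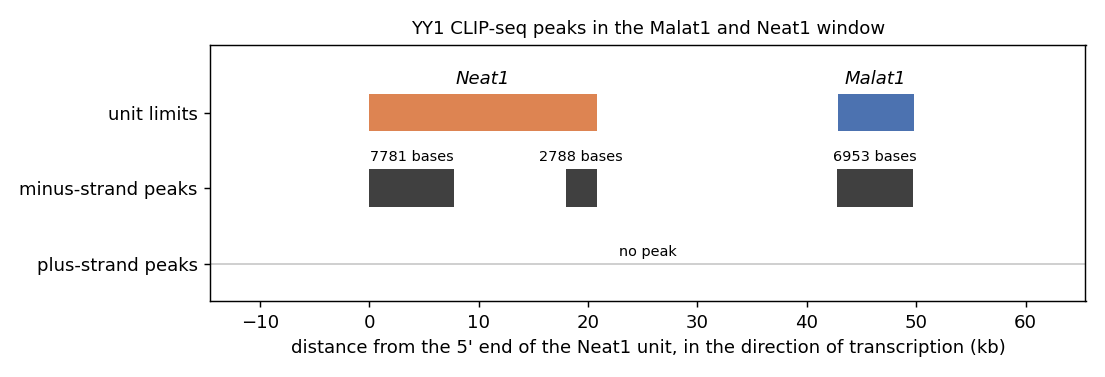
Map of the window, drawn to scale, with the distance in kb from the 5′ end of the Neat1 unit on the x axis, in the direction of transcription. The upper row has the unit limits, the middle row the 3 minus-strand peaks with their widths of 7781, 2788 and 6953 bases, and the lower row the plus strand, which had 0 peaks.

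Neat1 was covered at both ends and open in the middle. Its 2 peaks held 10565 bases of the unit, 50.8%, about as much as lay outside them (10216 bases, 49.2%). The 5′ peak, from 5837699 to 5845479, measured 7781 bases and took in positions 2 to 7782 of the unit, counted from its 5′ end. That is 37.4% of the unit. The 3′ peak, from 5824696 to 5827483, measured 2788 bases. It began at position 17998 and held 13.4% of the unit. Where the short form ends in mm9 was not examined, so the peaks were not assigned to forms.

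Between the Neat1 peaks lay 10215 bases without a peak on either strand, from 5827484 to 5837698. They are positions 7783 to 17997 of the unit and 49.2% of its length. In 10 equal bins from the 5′ end, bins 1 to 3 were covered to 100% (the first lacked a single base), and bin 4 to 74.4%. Bins 5 to 8 had 0 covered bases. Bin 9 was covered to 34.0% and bin 10 to 100%. With depth and the caller's threshold unknown, RNA from the open middle may have been bound below that threshold.

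**Figure D2:**
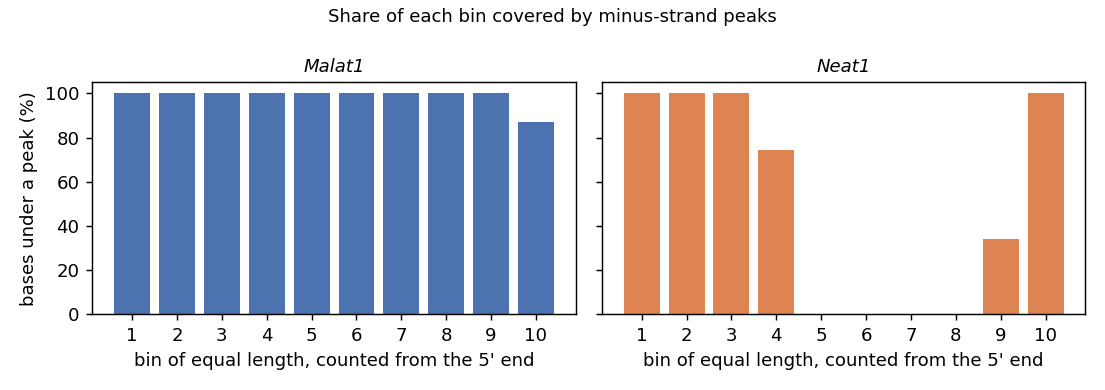
Percent of bases under a minus-strand peak (y axis) in 10 equal bins of each unit, counted from the 5′ end (x axis), for Malat1 (left) and Neat1 (right). Malat1 is covered to 100% in bins 1 to 9 and to 86.8% in bin 10, while Neat1 has 0 covered bases in bins 5 to 8.

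The outer edges of the Neat1 peaks lay close to the limits of the unit. The 5′ peak ended 1 base inside the 5′ limit, and the 3′ peak passed the 3′ limit by 4 bases. The Malat1 peak was 63 bases past its 5′ limit and 92 bases short of its 3′ limit. Because the limits are approximate and were set with these peaks known, differences of this size are not read further.

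Of the summed 17522 bases of the Malat1 and Neat1 peaks, 63 at Malat1 and 4 at Neat1 lay outside the 2 units. The unit limits were set with these peaks known, so whether the peaks keep to the genes could not be tested. The 21961 bases between the Malat1 peak and the 3′ peak of Neat1, from 5802735 to 5824695, had no peak on either strand. On the other side of Malat1, in the direction of transcription, the next minus-strand peak was 107041 bases away, at 5687952 to 5688740, and was 789 bases wide. Before the 5′ end of Neat1, the next minus-strand peak was 58316 bases away, at 5903796 to 5904258, and was 463 bases wide. These are the nearest peaks outside the window on that strand.

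The opposite strand had 0 peaks in the window. The nearest plus-strand peak, at 5642501 to 5642595, was 95 bases wide and 153186 bases from the Malat1 peak. It was 182100 bases from the 3′ peak of Neat1 and 195103 bases from the 5′ peak. With the wider 50% of peaks kept, this narrow peak dropped out, and the nearest was 301764 bases from the Malat1 peak, at 5493430 to 5494017. The labels do not explain the strand names of the lists. At these genes, both read from the minus strand, all 3 peaks were in the list named for the minus strand.

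A lack of opposite-strand peaks was common among other peaks as well. Of the 158 other nuclear peaks over 2000 bases, 107 had no opposite-strand peak within 50 kb, 67.7% (exact Clopper-Pearson 95% interval 59.8 to 74.9). Among all 12044 other nuclear peaks the share was 73.6% (72.8 to 74.4). An opposite-strand distance of 153186 bases or more was seen for 52 of the 158 wide peaks (32.9%) and for 44.1% of all other nuclear peaks. These intervals reflect counting error alone, within 1 library, as if each peak were an independent draw. The Malat1 and Neat1 peaks did not stand apart in this measure.

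In width, 2 of the 3 peaks headed the YY1 lists. The 5′ peak of Neat1 ranked 1 of all 12053 peaks and the Malat1 peak ranked 2. With same-strand peaks within 100 bases joined, the Malat1 peak ranked 3. The Neat1 and Malat1 peaks were 23.2 and 20.7 times as wide as the median peak, which measured 336 bases. The next in rank, a minus-strand peak of 6549 bases at 4798161 to 4804709, was on the same chromosome but outside the window. The 3′ peak of Neat1 ranked 51, or 24 among the 5905 minus-strand peaks, and was 8.30 times the median width. On the minus strand of chromosome 19 the 3 peaks ranked 1, 2 and 4.

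**Figure D3:**
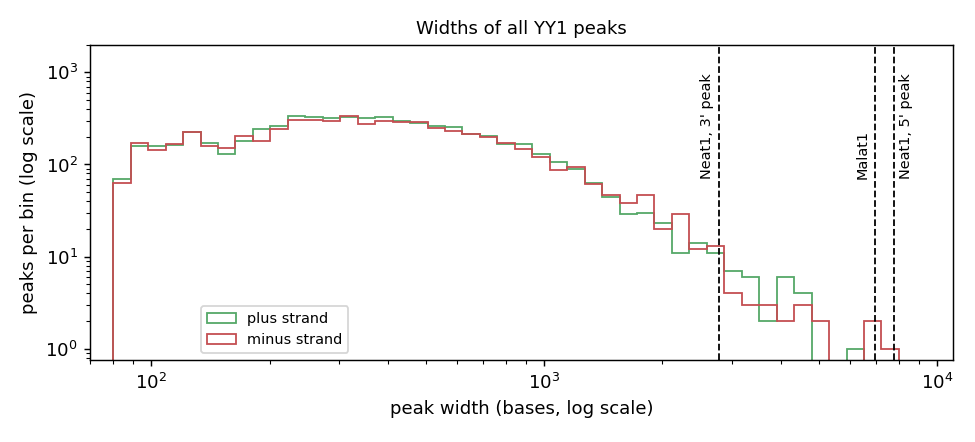
Number of peaks (y axis, log scale) by width in bases (x axis, log scale) for the 5905 minus-strand and the 6148 plus-strand peaks. Dashed lines mark the Neat1 3′ peak at 2788 bases, the Malat1 peak at 6953 bases and the Neat1 5′ peak at 7781 bases, the last at the right end of the distribution.

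The locus took a larger share of bases than of peaks, which follows from its selection on peak width. Its 3 peaks were 0.0249% of all peaks and held 0.313% of the 5594 kb covered by peaks, 12.6 times that share. On the minus strand of chromosome 19 they were 3 of 144 peaks, or 2.08%, and held 19.2% of the covered bases. Within 1 Mb on either side of the window, 19 other minus-strand peaks, of median width 463 bases, covered 18005 bases in all, beside 17522 bases in the 3 Malat1 and Neat1 peaks. One of the 19 was the peak of 6549 bases, and the others covered 11456 bases. On the plus strand of that stretch, 13 peaks, of median width 459 bases, covered 9133 bases.

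Set beside minus-strand windows of 80 kb across the nuclear genome, the locus ranked 1 in covered bases, while in tiles of 20 kb its best tile ranked 9. The other 3621 windows that touched a peak had a median of 435 covered bases. The highest of them had 8349 bases in 8 peaks, and the Malat1 and Neat1 window had 2.10 times as many. Fixed windows can cut a peak or a group of peaks, while this window was drawn around its own. The 20 kb tiles cut the Malat1 peak and the 5′ peak of Neat1. Windows started at each minus-strand peak reached at most 13459 bases elsewhere, which the locus exceeded 1.30 times. By number of peaks the locus did not lead, since 545 of the 3621 windows, 15.1%, touched 3 or more peaks. The 313 windows that touched exactly 3 had a median of 1305 covered bases and at most 6431.

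**Figure D4:**
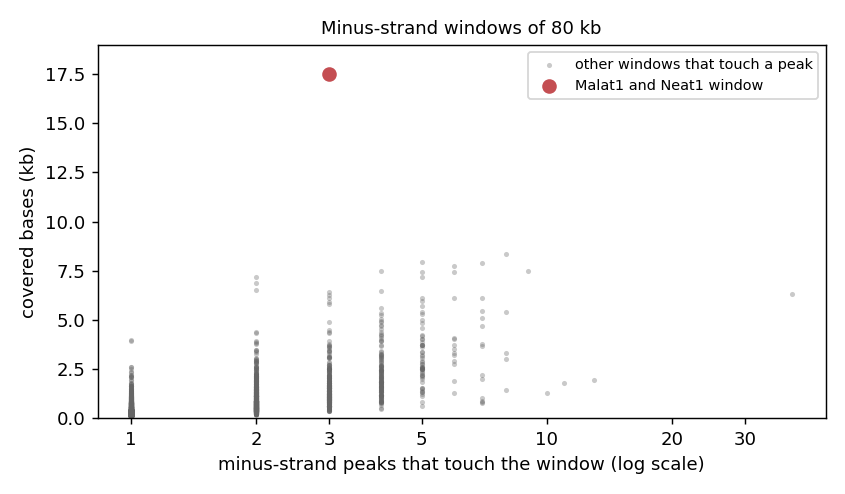
Covered bases in kb (y axis) against the number of minus-strand peaks that touch a window of 80 kb (x axis, log scale), for the 3621 other windows with a peak and for the Malat1 and Neat1 window. The locus has 17522 covered bases from 3 peaks, above the 8349 bases of the next window.

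Wide peaks that follow each other along 1 strand were few. Peaks over 2000 bases were themselves few, 165 of all 12053, mitochondrial ones included. Among 12005 neighbouring pairs of nuclear peaks on the same strand, 5664 had a gap of at most 50 kb. In 16 of these 5664 pairs, both peaks were over 2000 bases. Whether wide peaks adjoin more often than their number would give was not tested. The Neat1 pair was 1 of the 16 and had the largest summed width among them, at 10569 bases. The Malat1 peak and the 3′ peak of Neat1 were another, with the second largest, at 9741 bases. The 3 peaks were also the 1 case in the nuclear genome of 3 successive same-strand peaks that were all over 2000 bases with such gaps. Groups of wide peaks were chosen after values were seen, in a locus selected on width, so these ranks and this single case are a description. The inner gap of Neat1, 10215 bases, ranked 7, counted from the longest, among the gaps of the 16 pairs, which ran from 51 to 46625 bases. Over all 12005 neighbouring pairs the median gap was 58956 bases, and 21.3% had a gap no longer than that inside Neat1.

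Same-strand neighbours were usual for wide peaks. Each of the 3 Malat1 and Neat1 peaks had a same-strand peak within 50 kb, but that neighbour was another of the 3. Its presence thus follows from the choice of the window. Outside the locus, the nearest same-strand peaks were 58316 and 107041 bases away. A same-strand peak within 50 kb was present for 140 of the 158 other wide nuclear peaks, 88.6% (exact 95% interval 82.6 to 93.1). Among all other nuclear peaks the share was 68.6% (67.8 to 69.5). The intervals treat each peak of 1 library as an independent draw, although 2 neighbouring peaks can count for each other. When peaks were joined into runs across gaps of at most 10 kb, Malat1 and each Neat1 peak stood alone, since the Neat1 gap of 10215 bases was just over that limit. The runs with the widest Neat1 and Malat1 peak ranked 7 and 11 of 9526 by covered bases. With gaps of up to 50 kb, all 3 joined into 1 run of 49698 bases, of which peaks covered 35.3%, and it ranked 2 of 6383.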

How the data were processed

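The authors deposited 2 peak lists of the YY1 library, 1 for each genome strand, which hold other values than counts or scores: the start and end of each peak in bases. The submitters' processing notes name cutadapt, Bowtie, Bowtie2 and SAMtools, without their roles, and build mm9. Which program called the peaks, at what threshold and with what control is not given in the sources used here. Starts were turned from 0-based to 1-based form. A peak was a member if it overlapped the window by at least 1 base. Coverage was the union of minus-strand peak bases within a unit, and a gap was the number of bases between peaks. Mitochondrial peaks were left out of the comparisons with nuclear peaks. The rule for named genes took Malat1 and Neat1 and every peak of the window. The members and lists were chosen with earlier results of these data known. Motifs and groups of wide peaks were also chosen after values were seen. The lists of pluripotency, fibroblast, nuclear RNA and paraspeckle genes were not counted, since no mm9 annotation was used here. The interval functions were tested on simulated data. Alternatives were another list, joined peaks, other limits and other windows. Software was Python 3.11.15 with pandas 2.3.3, numpy 2.4.6, matplotlib 3.10.9 and scipy 1.17.1.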

Additional observations from a re-analysis of the deposited data

How the results depend on the processing

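Of 43 alternative values, 29 stayed within 1.5 times the main value, or within 1 percentage point of a share, and 14 did not. Several of the 29 could not have moved, since the 3 peaks were chosen for width and lie more than 10 kb apart. The tally thus does not measure how stable the results are. On a shorter list, the wider 50% by strand, the 3 peaks and their coverage were as in the main setting. That was fixed in advance, since the narrowest of the 3 was 8.30 times the median width. The nearest plus-strand peak of that list lay 301672 bases from the Malat1 unit (main 153094), since the nearest one in the full list is narrow. From the Neat1 unit it lay 330682 bases away (main 182104). Moving the unit ends by 500 bases outwards gave coverage of 87.1% for Malat1 and 48.5% for Neat1, and inwards 100% and 48.4%. With 20 bins, 45.0% of Neat1 lay in bins with 0 covered bases, against 40.0% with 10. Gaps of up to 50 kb put all 3 peaks in 1 run, which ranked 2. Gaps of up to 1 kb gave runs ranked 2 for Neat1 and 3 for Malat1. In tiles of 20 kb the best tile of the locus ranked 9. Tile edges at multiples of 20 kb cut the Malat1 peak and the 5′ peak of Neat1. The rank with these peaks left whole was not tested. In the other window settings the locus ranked 1, also with windows started at each peak, a setting chosen after seeing the data. No paired analysis was possible because only the YY1 library entered.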
